A study of Homo sapiens with 6 samples.

Results

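Histone genes H2BC5, H1-2, H2BC9 and H2AC6 were followed in HEK293 T-REx Flp-In cells, which descend from human embryonic kidney, on 6 Affymetrix Human Genome U133 Plus 2.0 arrays. Their earlier symbols are HIST1H2BD, HIST1H1C, HIST1H2BH and HIST1H2AC. The 4 genes were chosen by their measured values: they read much higher after LIN28B depletion than in mock cells, so that contrast is given for them as a description without a test. Each gene had 1 probe set in the deposited table, annotated to that gene alone, and these are 4 of the 11584 genes the table names. All samples carried a FLAG/HA-tagged LIN28B transgene that doxycycline switches on. The groups, with 2 arrays each, were mock-transfected cells without induction, mock-transfected cells with the transgene induced, and cells without induction given siRNA against LIN28B, an RNA-binding protein. The protocols give doxycycline at 250 ng/ml, 15 to 20 h ahead of a crosslinking step, and do not say whether the array cells were induced in the same way. Whether the 2 replicates of a group are separate cultures is not stated either. The p-values then reflect array-to-array spread, which may be technical, and fewer cells with a transcript and less of it per cell cannot be told apart. No cells given a non-targeting siRNA are among the arrays, so siRNA transfection and loss of LIN28B cannot be told apart.

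Core histones H2A, H2B, H3 and H4 form the protein spool that DNA winds around, and linker histone H1 sits where DNA enters and leaves it. The replication-dependent histone genes lie in clusters and are transcribed mainly in S phase, when new DNA needs new histones. Their main mRNAs end in a stem-loop bound by SLBP instead of a poly(A) tail, and are degraded quickly when DNA synthesis stops. Some of these genes also give polyadenylated transcripts. The one-cycle labelling named in the protocols starts from an oligo(dT) primer, so tailed transcripts are what such arrays read best. The shares of tailed and stem-loop mRNA were not measured.

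Human histone genes are so alike that short probes can read several of them. On this platform a probe set whose name ends in _x_at or _s_at holds probes that also match other transcripts. H2BC5 (222067_x_at) and H2BC9 (208546_x_at) were read by sets of the first kind, H2AC6 (215071_s_at) by one of the second, and only H1-2 (209398_at) by a set without such a mark. The H2B and H2A values below may therefore hold signal from other family members.

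The upstream sequences are shown because the promoters of the 4 genes differ in the elements they carry. They are the 250 bases before each annotated start in RefSeq, assembly GRCh38.p14, read 5′ to 3′ on the strand of the gene. The windows are chr6:26157871-26158120 (plus strand) for H2BC5, chr6:26056471-26056720 (minus) for H1-2, chr6:26251364-26251613 (plus) for H2BC9 and chr6:26123922-26124171 (plus) for H2AC6. Capitals mark exact matches, on either strand, to the octamer ATTTGCAT bound by POU2F1 in H2B promoters, to the CAAT-box letters CCAAT, and to the TATA-type letters TATAAA. No 2 matches overlap in these windows.
H2BC5: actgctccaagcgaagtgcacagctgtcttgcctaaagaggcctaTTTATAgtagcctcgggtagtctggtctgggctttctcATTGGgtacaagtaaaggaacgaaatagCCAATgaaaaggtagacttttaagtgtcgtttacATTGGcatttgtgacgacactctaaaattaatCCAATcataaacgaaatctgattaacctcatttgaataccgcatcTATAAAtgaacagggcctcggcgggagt
H1-2: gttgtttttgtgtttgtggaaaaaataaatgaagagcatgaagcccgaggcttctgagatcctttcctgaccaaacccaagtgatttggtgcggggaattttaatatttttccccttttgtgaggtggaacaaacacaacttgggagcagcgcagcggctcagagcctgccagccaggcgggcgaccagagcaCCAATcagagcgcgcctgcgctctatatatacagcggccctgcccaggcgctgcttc
H2BC9: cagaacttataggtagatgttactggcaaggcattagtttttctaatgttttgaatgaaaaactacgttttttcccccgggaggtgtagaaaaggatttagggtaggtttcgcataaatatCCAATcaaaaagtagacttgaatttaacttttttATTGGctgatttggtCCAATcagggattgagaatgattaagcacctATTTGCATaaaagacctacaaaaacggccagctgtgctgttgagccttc
H2AC6: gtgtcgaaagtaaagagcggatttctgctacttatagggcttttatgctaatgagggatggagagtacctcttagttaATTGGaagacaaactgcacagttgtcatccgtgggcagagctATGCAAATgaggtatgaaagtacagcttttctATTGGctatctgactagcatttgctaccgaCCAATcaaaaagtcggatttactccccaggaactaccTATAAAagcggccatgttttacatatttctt

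The octamer was found once upstream of H2BC9, at positions -49 to -42 from the start, and once upstream of H2AC6, at -130 to -123 on the opposite strand. It was not found in the H2BC5 or H1-2 window. CCAAT occurred 4 times upstream of H2BC5, 3 times upstream of both H2BC9 and H2AC6, and once upstream of H1-2. TATAAA lay at -28 to -23 in H2BC5 and at -31 to -26 in H2AC6. H2BC5 had another match to it on the opposite strand at -205 to -200. The H2AC6 window shares 245 bases with that of H2BC4, which is transcribed the other way, so the octamer there is a single copy in front of both genes.

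**Figure D1:**
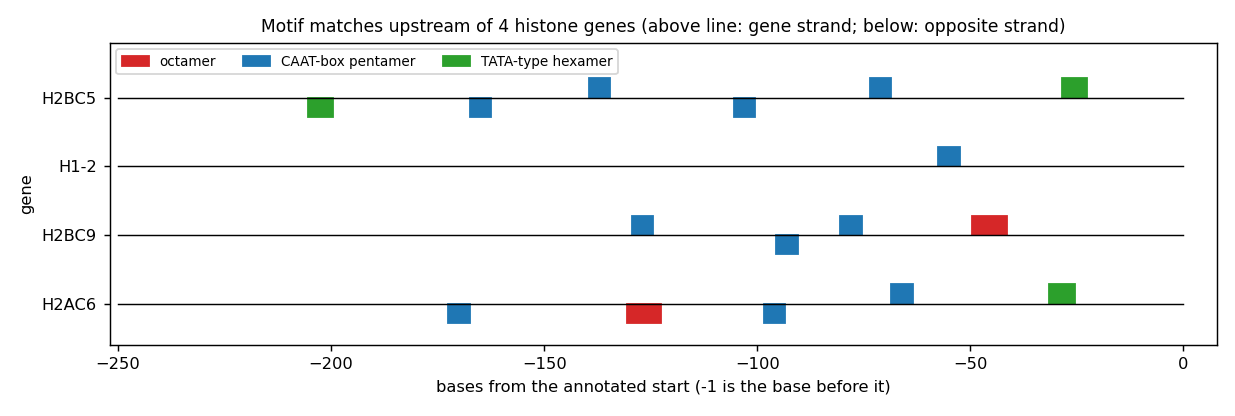
Exact motif matches in the 250 bases upstream of the annotated start of each gene, drawn by distance from the start in bases. Boxes above a line are on the gene's strand and boxes below it on the opposite strand. H2BC9 and H2AC6 have an octamer match, and H2BC5 and H1-2 have none.

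Of 18 H2B promoters in RefSeq, 77.8% held the octamer in the same window, and of 16 H2A promoters 68.8%. Over 27305 promoters the share was 1.66%. No H1 or H4 promoter of the cluster genes held it (0 of 6 and 0 of 13). CCAAT was in 100% of H1, H2A, H2B and H3 promoters, 23.1% of H4 promoters and 33% of all promoters. TATAAA was in 65.6% of the 64 histone promoters and 11.1% of all. H2BC5 thus belongs to the minority of H2B genes whose window lacks the octamer letters.

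H2BC5, which encodes an H2B protein, had the largest difference of the 4 genes. Its deposited log2 values were 7.67 and 7.52 on the mock arrays without induction, 7.60 and 7.58 on the induced arrays, and 9.76 and 9.78 on the siRNA arrays. The siRNA arrays lay far above all mock arrays, and the 2 mock groups overlapped. The group means were 7.60 ± 0.10, 7.59 ± 0.01 and 9.77 ± 0.02 (SD, n = 2 each). The siRNA group was higher than the cells without induction by 2.18 on the log2 scale (SE 0.09), or 4.52-fold. RefSeq lists 2 curated transcripts for H2BC5 and 1 for each of the other 3 genes. Which of the 2 its probe set reads is not known here.

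H1-2 encodes linker histone H1.2. It read 7.78 and 7.67 without induction, 7.71 and 7.75 with induction, and 9.08 and 9.18 after siRNA. Again the siRNA arrays stood apart and the mock groups overlapped. The difference between siRNA and cells without induction was 1.41 (SE 0.09), or 2.65-fold. As this set carries no cross-hybridisation mark, it is the cleanest of the 4 readings by its name.

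H2BC9 encodes another H2B protein and had the largest spread of the 4 genes within the uninduced and siRNA groups. It read 6.90 and 6.29 without induction, 6.77 and 6.74 with induction, and 7.65 and 8.10 after siRNA. Every siRNA value exceeded every mock value, yet the SD was 0.43 over the arrays without induction and 0.32 over the siRNA arrays. On the induced arrays it was 0.016, below those of H1-2 (0.027) and H2AC6 (0.086). The difference between the means was 1.28 (SE 0.20), or 2.43-fold. Leaving out uninduced replicate 1 gave 1.59, and leaving out uninduced replicate 2 gave 0.98.

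H2AC6, an H2A gene, had the smallest difference. Its values were 6.98 and 6.61 without induction, 6.67 and 6.79 with induction, and 7.72 and 7.63 after siRNA. The groups were ordered as for the other genes, with mock groups that overlapped and siRNA arrays above both. The difference was 0.88 (SE 0.14), or 1.85-fold. Leaving out uninduced replicate 1 gave 1.07, and leaving out uninduced replicate 2 gave 0.70.

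**Figure D2:**
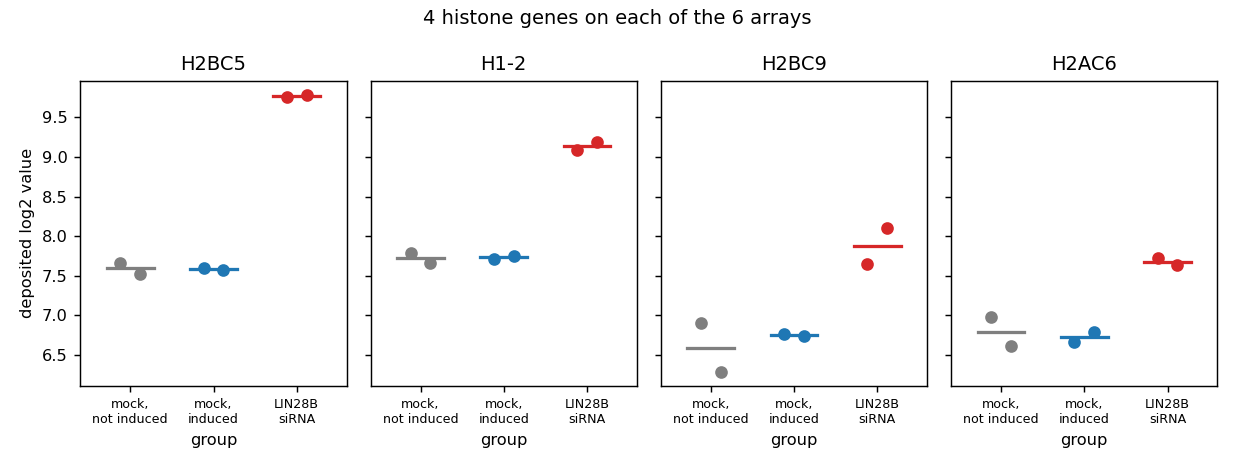
Deposited log2 value (vertical axis) of each gene's probe set on every array, by group; points are arrays and bars are group means. In each panel the 2 LIN28B siRNA arrays lie above all 4 mock arrays, and the mock groups overlap. Heights are not comparable between panels, since each gene has its own probes.

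Of all 13008 probe sets, 27.7% were called between siRNA and cells without induction, 13.3% higher and 14.4% lower, where called means a limma adjusted p under 0.05. Both siRNA arrays lay above all 4 mock arrays for 26.7% of probe sets. That all 4 histone genes did so follows from how they were chosen. By size of the rise they ranked 1 (H2BC5), 24 (H1-2), 36 (H2BC9) and 176 (H2AC6) among 13008. LIN28B itself read 10.02 and 9.85 without induction, 10.15 and 10.11 with induction, and 7.51 and 7.53 after siRNA, which checks the siRNA label. Its difference between arrays labelled induced and not induced was 0.19, with a 95% interval of 0.02 to 0.37. It did not pass (adjusted p = 0.999 by limma). These arrays therefore do not show that the transgene was on, and whether this probe set reads the transgene is not known here.

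The contrast between arrays labelled induced and not induced was not used to choose the genes, and none of the 4 passed the test there. Of all probe sets, 0% were called there (0 of 13008 by limma, with 390 at an unadjusted p under 0.05). The log2 difference between induced and not induced cells was -0.01 for H2BC5 (95% interval -0.20 to 0.19) and 0.01 for H1-2 (-0.19 to 0.21). For H2BC9 it was 0.16 (-0.29 to 0.61) and for H2AC6 -0.07 (-0.37 to 0.24). The limma adjusted p was 0.999 for each. Each interval ended below the siRNA difference of that gene. That difference was chosen to be large and shares the uninduced arrays, so this is not separate support. As these arrays do not show whether the transgene was on, the induction differences describe the 2 labelled groups. Whether they hold an effect of LIN28B cannot be told. Against the induced arrays the siRNA arrays were higher by 2.18, 1.40, 1.12 and 0.95 for H2BC5, H1-2, H2BC9 and H2AC6. These values share the siRNA arrays with those above and are not separate support.

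The rest of the replication-dependent histone genes showed how far the pattern reached by family. Apart from the 4 genes, 21 probe sets of the table were annotated to such genes only, 11 of them to 1 gene and 10 to several. The deposited values hold, but for 1 probe set, only those above 5 on at least 2 arrays. Of the 21 sets, 4 reached that only through 1 group: H3C6, 1 of the H4C8 sets (208180_s_at) and the set for H3C4 and H2AC7 through siRNA, and H4C5 through the uninduced arrays. Presence through 1 group favours a difference towards that group, so these sets are given as values without a test. Of the other 17, between siRNA and cells without induction, 10 rose, 0 fell and 7 did not pass by limma. That is 58.8% higher, beside 13.3% higher and 14.4% lower over all probe sets. Their median log2 difference was 0.61, against 0.01 over all probe sets. Many of them share sequence with the 4 genes, so they are not separate evidence.

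The other H2A sets all rose. H2AC14 (208583_x_at) read 6.37 and 6.13 without induction and 6.98 and 6.88 after siRNA, a log2 difference of 0.68 (SE 0.13, limma adjusted p = 0.00418). H2AC25 (221582_at), whose set carries no cross-hybridisation mark, rose by 0.41 (adjusted p = 0.00257). A set for H2AC18 and H2AC19, which have near-identical sequence, rose by 0.85 (SE 0.08). Both sets annotated to the same 6 H2A genes rose, by 0.67 and 0.61. The call of 207156_at among them was lost without siRNA replicate 2 (adjusted p = 0.0721). That of 214542_x_at was lost without either siRNA array or uninduced replicate 2 (adjusted p between 0.0777 and 0.17).

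Of the other H2B sets 4 of 5 rose. H2BC12 (209806_at) read 11.52 and 11.48 without induction, 11.53 and 11.56 with induction, and 12.27 and 12.31 after siRNA. Its difference of 0.79 (SE 0.04, limma adjusted p = 4.89e-06) came from a set without a cross-hybridisation mark. H2BC6 rose by 0.89 (SE 0.10), and both sets annotated to H2BC4, H2BC6, H2BC7, H2BC8 and H2BC10 rose, by 0.97 and 0.90. H2BC21 had a difference of 0.41 (adjusted p = 0.0551) and did not pass. With arrays centred on their medians it had adjusted p = 0.0412, and with quantile normalization 0.0419. H2BC12L (208579_x_at), a related H2B gene outside the listed symbols, was picked after its value was seen. Its difference of 1.10 (SE 0.06) is therefore given without a test, and its set carries a cross-hybridisation mark. The H2B differences thus ran from 0.41 to 1.28 and stood well below that of H2BC5, at 2.18.

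H3 was read by 3 sets. H3C6 (236278_at) read 4.95 and 4.58 without induction, 4.98 and 5.06 with induction, and 6.09 and 6.09 after siRNA. Its log2 difference was 1.32 (SE 0.18), for a set that is in the deposited values only through the siRNA arrays. A set annotated to 10 H3 genes rose by 1.05 (SE 0.12). H3C8 had a difference of 0.42 (adjusted p = 0.0898), which passed without uninduced replicate 2 (0.59, adjusted p = 0.0452).

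H4 was read by 7 sets. Of the 5 that did not rest on 1 group, 0 rose and 0 fell by limma, with 0 at an unadjusted p under 0.05, and their median was -0.15. The 3 sets annotated to the same 14 H4 genes had differences of 0.05, -0.04 and -0.15. One of them (205967_at) read 13.75 and 13.74 without induction and 13.68 and 13.72 after siRNA, in the top range of the deposited values. H4C11 had -0.26. H4C5 had -0.29 and is in the deposited values only through the uninduced arrays. H4C8 was read by 2 sets that disagreed. The set 208180_s_at, present only through the siRNA arrays, read 4.60 and 4.60 without induction and 5.50 and 5.28 after siRNA, a difference of 0.79. The set 232035_at, of higher mean, had -0.18 (adjusted p = 0.624), with 6.05 and 5.27 on the 2 arrays without induction, and 0.21 without uninduced replicate 1. The set shared by H3C4 and H2AC7 had 0.41. Whether H4 differs from the other families was not tested.

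**Figure D3:**
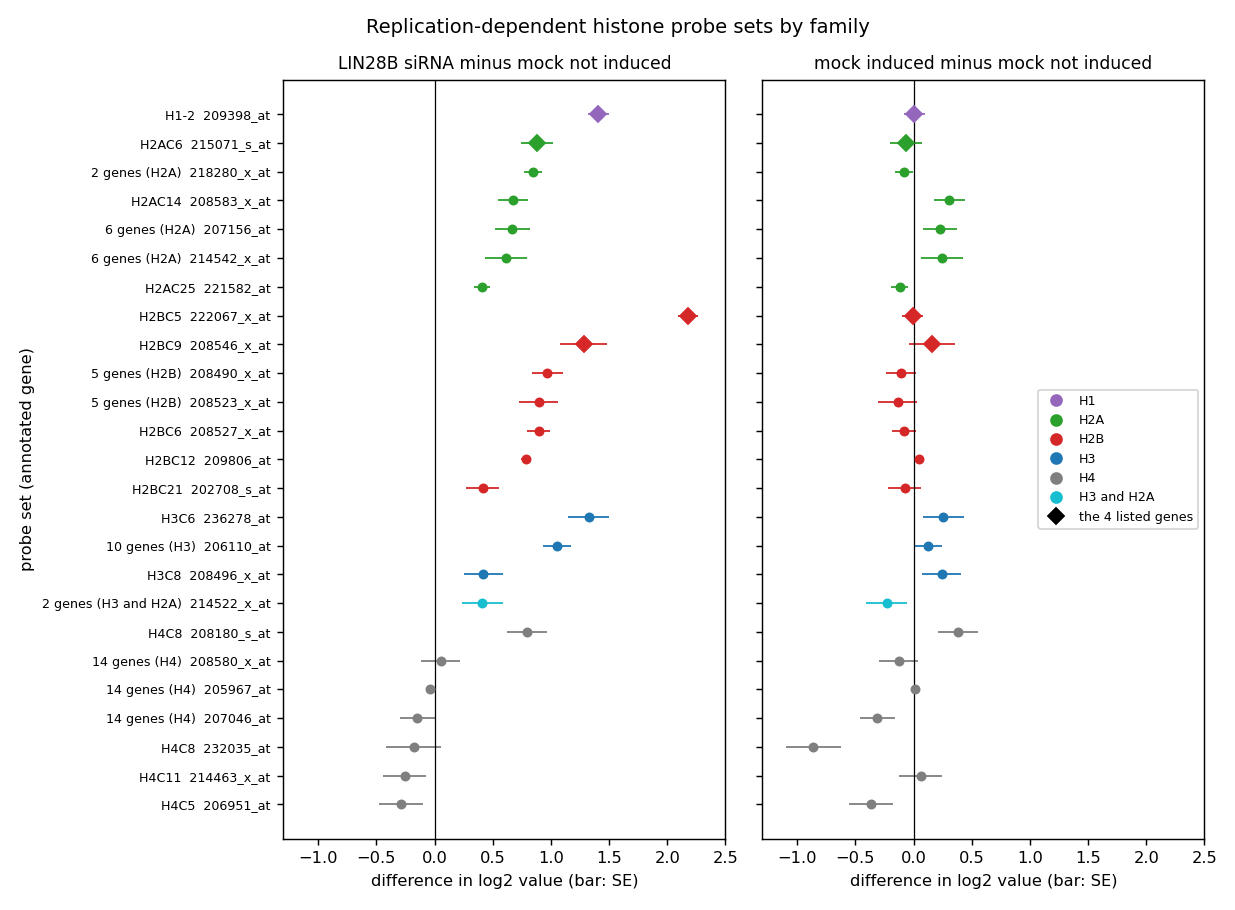
Log2 difference (horizontal axis) with its SE for 25 probe sets of replication-dependent histone genes, grouped by family; left, LIN28B siRNA against mock not induced, right, induced against not induced. Diamonds are the 4 listed genes. On the left the H1, H2A, H2B and H3 sets lie between 0.41 and 2.18 and 6 of 7 H4 sets between -0.29 and 0.05; on the right the 4 listed genes lie between -0.07 and 0.16.

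Between the arrays labelled induced and not induced the 17 sets had a median difference of -0.08, from -0.86 to 0.31, and 0 were called by limma, with 2 at an unadjusted p under 0.05. These were H2AC14 (0.31) and the H4C8 set 232035_at (-0.86).

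Replication-independent variants, which are also made outside S phase and mostly from ordinary polyadenylated mRNAs, were looked at next. Of 7 such genes with their own probe set 0 rose and 0 fell by limma, with 3 at an unadjusted p under 0.05. The share called was 0%, beside 27.7% of all probe sets. Over all probe sets 5092 of 13008 were at an unadjusted p under 0.05 by limma. The median log2 difference of the 7 genes was 0.08. The variant H3.3 is not among the 7, since its sets are annotated to several genes. Of those sets, 211999_at had a difference of 0.32 and was called, and 213828_x_at had -0.04 and did not pass. CENPA, the centromeric H3, had 0.27 (adjusted p = 0.0936), which passed without uninduced replicate 1 (0.38, adjusted p = 0.0374). H2AJ had 0.21 (adjusted p = 0.109). No test compared the variants with the replication-dependent genes.

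Genes that lie among or beside the histone genes on chromosome 6 were read as well. In RefSeq the protein-coding neighbours are H3C3 and HFE for H1-2, H2BC4 and H1-4 for H2AC6, H1-4 and H2BC6 for H2BC5, and H3C7 and H3C8 for H2BC9. HFE, the iron regulator gene next to H1-2, read 5.07 and 5.29 without induction and 5.20 and 4.96 after siRNA, a difference of -0.10 (adjusted p = 0.715). Of 13 non-histone genes of the region 1 rose, 2 fell and 10 did not pass, with a median of 0.11. The share called was 23.1%, near the 27.7% of all probe sets. The split moved with the settings: 3 of 4 calls were higher with centred arrays, 2 of 4 with quantile normalization, and 2 of 3 among probe sets above 6 or without uninduced replicate 2. The butyrophilin gene BTN2A1 rose by 0.33, and BTN3A3 and the nucleosome-binding protein gene HMGN4 fell by 0.57 and 0.37. Each of these calls was lost without an siRNA array or uninduced replicate 1 (limma adjusted p between 0.0532 and 0.268). Without siRNA replicate 2 the difference of HMGN4 was -0.20. BTN3A3 was also lost without uninduced replicate 2 or either induced array (0.0625 to 0.0786). The count was 1 without either siRNA array or that replicate 1.

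Factors that make histone mRNA act at the promoter and at the stem-loop end. Of 22 genes of histone gene transcription and 3′ end processing, 5 fell, 1 rose and 16 did not pass, with a median of -0.08. The share called was 27.3%, as over all probe sets (27.7%), and with centred arrays 3 of 8 calls were higher. YY1, a zinc finger transcription factor, fell by 0.65 (SE 0.06, limma adjusted p = 0.000136), from 9.79 and 9.83 to 9.17 and 9.16. NPAT, the S-phase coactivator of histone genes, fell by 0.41 (adjusted p = 0.0225). The cleavage factor gene CSTF2 fell by 0.48 and SRRT, which encodes the cap-binding complex partner ARS2, rose by 0.28. SLBP, the stem-loop binding protein gene, had -0.08 (adjusted p = 0.315) and was picked after its value was seen. The calls of NPAT, CSTF2 and SRRT were lost without siRNA replicate 1 (0.14, 0.148 and 0.218). NPAT and SRRT were also lost without siRNA replicate 2 or uninduced replicate 1, CSTF2 without uninduced replicate 2, and SRRT without either induced array. The count of 6 called genes was 1 without siRNA replicate 1, 2 without siRNA replicate 2 and 3 without an intensity trend.

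Decay of histone mRNA starts with a short uridine tail and needs UPF1 and the LSM ring. Of 22 genes of this list 2 rose, 3 fell and 17 did not pass, with a median of 0.03. The share called was 22.7%, beside 27.7% of all probe sets. The split moved with the settings: 5 of 7 calls were higher with centred arrays, 4 of 7 among probe sets above 6 and 4 of 6 without uninduced replicate 2. The uridylyltransferase gene TUT4, which also tails let-7 precursors bound by LIN28, fell by 0.55 (SE 0.10, limma adjusted p = 0.00252). The decapping enzyme gene DCP2 rose by 0.55 and PNRC2, a partner of UPF1 in decay, rose by 0.36. LSM6 fell by 0.31. The call of DCP2 was lost without siRNA replicate 2 (0.0812), and that of LSM6 without either siRNA array or either array of cells not induced (0.0602 to 0.207). The count of 5 was 3 without siRNA replicate 2 or without an intensity trend.

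Cleavage and polyadenylation factors set where ordinary mRNAs receive their tail. Of 19 genes 2 rose, 3 fell and 14 did not pass, with a median of -0.05. The share called was 26.3%, near the 27.7% of all probe sets, and with centred arrays 3 of 6 calls were higher. Subunits of cleavage factor I went opposite ways: NUDT21 rose by 0.57 (SE 0.07, limma adjusted p = 0.000395) and CPSF6 fell by 0.56 (SE 0.08, adjusted p = 0.00106). NUDT21 read 9.30 and 9.19 without induction and 9.84 and 9.80 after siRNA, and CPSF6 8.66 and 8.60 against 8.08 and 8.06. CLP1 rose by 0.47 and CSTF2, also in the processing list above, fell by 0.48. Without siRNA replicate 1 the calls of CLP1 (0.0512) and CSTF2 were lost and the count was 2.

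Histone chaperones carry histones to DNA. Of 29 genes 6 fell, 2 rose and 21 did not pass, with a median of -0.08. The share called was 27.6%, as over all probe sets (27.7%). ASF1A, which hands H3 and H4 to assembly factors, fell by 0.71 (SE 0.10, limma adjusted p = 0.000679). CHAF1B, a subunit of the replication-coupled assembly factor CAF-1, fell by 0.67 (SE 0.10), and RBBP4, another of its subunits, fell by 0.55. SPTY2D1 rose by 0.51 (adjusted p = 0.0467), a call lost under 7 of 14 alternatives, among them without either siRNA array (0.145 and 0.178), without uninduced replicate 2 (0.28, adjusted p = 0.228) and without either induced array (0.063 and 0.0639). That of RBBP4 was lost without siRNA replicate 2 (0.0502). The count of 8 was 5 without siRNA replicate 1.

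Histone transcription follows S phase, so genes of S phase entry and DNA synthesis were read as well. Of 47 genes 10 fell, 6 rose and 31 did not pass, with a median of -0.01. The share called was 34%, beside 27.7% of all probe sets. DBF4 and CDC7, the regulator and catalytic subunits of the kinase that fires replication origins, fell by 1.43 (SE 0.18, limma adjusted p = 0.000461) and 0.79 (SE 0.08, adjusted p = 0.000155). DBF4 read 8.88 and 8.29 without induction, 8.70 and 8.36 with induction, and 7.07 and 7.25 after siRNA. The cyclin-dependent kinase inhibitor genes CDKN1B and CDKN1A rose by 1.05 (SE 0.08, adjusted p = 4.73e-05) and 0.59 (SE 0.10, adjusted p = 0.0027). CDKN1B read 9.57 and 9.48 without induction and 10.69 and 10.46 after siRNA. Among the other called genes TK1, CHEK1, CCNE1 and GINS1 rose by 0.56, 0.51, 0.41 and 0.32. RFC4, RFC5, MCM4, MCM5, CCNA2, RB1, GINS3 and POLA2 fell, by 0.27 (RFC4) to 0.48 (CCNA2). The list also holds inhibitors, so its split of higher and lower has no single meaning. The part of cell cycle position in the histone values was not tested.

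**Figure D4:**
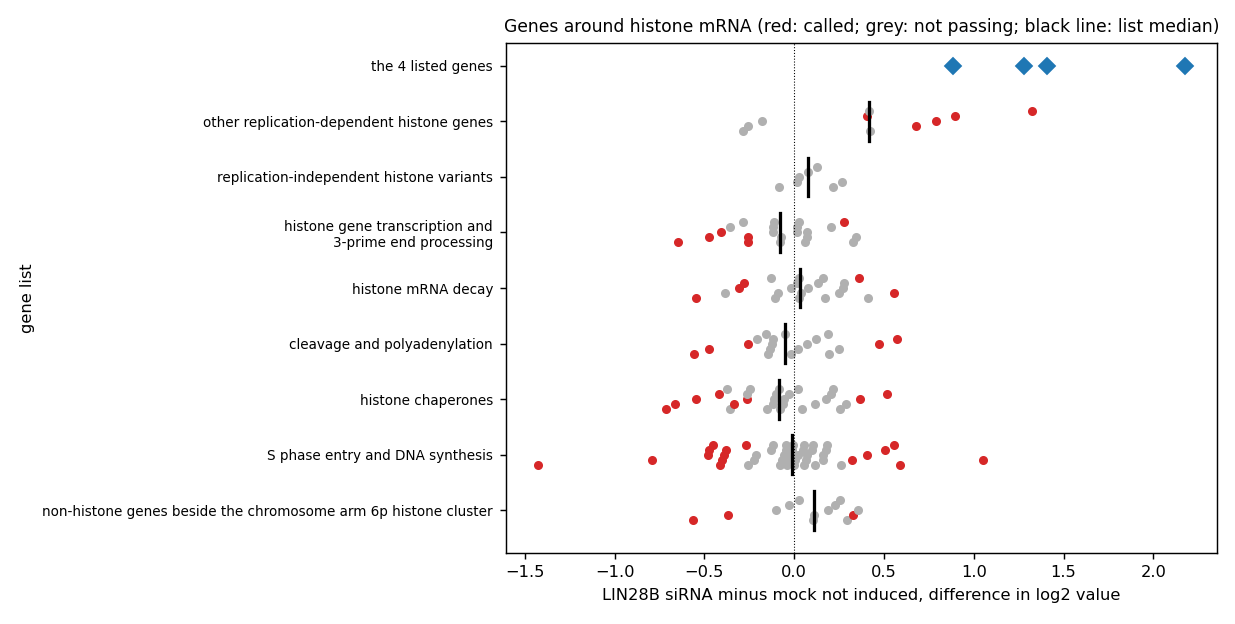
Log2 difference between LIN28B siRNA and mock not induced (horizontal axis) for each gene of 8 lists; red points were called, grey points did not pass, and black lines are list medians. Blue diamonds are the 4 listed genes, between 0.88 and 2.18. The medians of the 7 lists that are not replication-dependent histones lie between -0.08 and 0.11. Among the other histone genes, H3C6 and H4C5 are present only through 1 group. Their colours are therefore no test, and the median of that list includes them.

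The probe sets nearest in pattern to each gene over the 6 arrays were found by Euclidean distance between mean-centred log2 values, where 0 would be the same pattern. H2BC5 was nearest to NLRP11 (0.22), a NOD-like receptor gene, CXCL1 (0.44), a chemokine gene, and ALDH8A1 (0.44). H1-2 was nearest to the kinetochore gene CENPQ (0.14), the early response gene IER3 (0.15) and HOXD1 (0.15). H2BC9 was nearest to STXBP6 (0.21), MICB (0.26), a ligand of an activating receptor on natural killer cells, and HSPA2 (0.34). H2AC6 was nearest to JAZF1 (0.13), RSL1D1 (0.15) and SPPL2A (0.16). No histone gene was among these 12, but histone sets annotated to several genes were outside the search.

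Array medians lay between 7.13 and 7.18, and the lowest and highest correlations between arrays were 0.97 and 0.994, taken over probe sets, not over replicates. Of 6 epithelial markers 4 had a probe set in the table, of 7 fibroblast markers 2 (VIM and COL1A1), of 6 neuronal and adrenal markers 4, of 5 blood markers 2 and of 3 endothelial markers 0. Of the epithelial markers EPCAM and KRT8 rose by 0.28 and 0.38, KRT19 fell by 0.59 and KRT18 did not pass. Of the neuronal and adrenal markers INA, CHGB and SYT1 rose by 0.73, 0.98 and 0.75, and NEFL fell by 0.59. VIM fell by 0.18, COL1A1 did not pass, and 0 blood markers passed, with 0 at an unadjusted p under 0.05 by limma. On the linear scale the summed epithelial signal was 2725 and 2737 without induction, 2679 and 2617 with induction, and 3048 and 3123 after siRNA. The summed neuronal and adrenal signal was 1913 and 1931, 2041 and 2032, and 1762 and 1691 in the same groups. Most of that sum was NEFL, at log2 values of 10.53 and 10.54 without induction. The fibroblast sum was 6120 and 6491 without induction and 5738 and 5399 after siRNA, and the blood sum lay between 63 and 76.5 on all arrays. Nearly all of the fibroblast sum was VIM, at log2 values of 12.56 and 12.65 without induction. INA, CHGB and NEFL kept their calls without any single array. Those of KRT8 and SYT1 were lost without either siRNA array (limma adjusted p between 0.0634 and 0.146), and that of KRT8 also without uninduced replicate 1 (difference 0.24). SYT1 was lost without uninduced replicate 2 (0.0599), KRT19 without siRNA replicate 1 or uninduced replicate 2 (0.159 and 0.111), VIM without siRNA or uninduced replicate 2 (0.0892 and 0.0652), and EPCAM without siRNA replicate 2 (0.0742). Without an intensity trend VIM, KRT8 and EPCAM lost their calls (limma adjusted p = 0.172, 0.0598 and 0.0696). With quantile normalization VIM was lost as well (0.0578). The part of these markers in the histone values was not tested.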

How the data were processed

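The data are the deposited log2 values per probe set, 13008 in all, from 6 arrays. Per the submitters' processing notes the authors used affy and GCRMA, which corrects background by probe sequence, normalizes between arrays and summarises probes on the log2 scale. Versions, and the rule that chose these probe sets, are not given in the sources used here. The base of the logarithm was taken as 2. Labelling started from 2 µg of total RNA, per the labels' protocols. Precision is limited by 2 arrays a group.

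Names came from the platform annotation, with symbols updated to RefSeq by gene identifier: 11719 had 1 symbol, 609 several and 680 none listed. A limma model (version 3.58.1, R 4.3.3, lmFit and trended eBayes) was fitted to all 6 arrays and 3 groups at once, over all probe sets above 4 on at least 2 arrays (0 removed), with two-sided moderated tests and Benjamini-Hochberg adjustment over all probe sets. For genes of a list with several probe sets, the one of highest mean was used. SE is that of the model, and ± is the SD of 2 arrays. The analysis was tested on simulated data.

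The 4 genes and the gene lists were chosen with earlier results of these data known. Named were all histone probe sets, LIN28B, and from each other list up to 4 called genes of largest difference, or 2 where none was called. For the S phase list the remaining called genes were given as well. All markers in the table were named. For each of the 4 genes the 3 probe sets nearest in pattern, among those with 1 symbol, were also named. Alternatives covered scaling, filter, trend, arrays in the fit, a replicate block, 1 probe set per gene, and leaving out each array.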

Additional observations from a re-analysis of the deposited data

How the results depend on the processing

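Leaving out single arrays moved the siRNA difference of H2BC5 between 2.11 and 2.25, of H1-2 between 1.35 and 1.47, of H2BC9 between 0.98 and 1.59 and of H2AC6 between 0.70 and 1.07. Their direction is fixed by the choice of genes. The count of probe sets called between siRNA and cells without induction was 3600 and ran from 1860 to 3476 when single arrays were left out, lowest without siRNA replicate 1 (2212 without siRNA replicate 2). Centring the arrays gave 3728 calls, with 2029 higher against 1725 of 3600 as deposited. With a replicate block there were 3821 calls and, for induction, 0. Same-numbered arrays deviated together at r = 0.18, -0.06 and 0.01 between pairs of groups, so numbers were not taken as pairs. BTN3A3 and SRRT also lost their calls with the block (0.0589 and 0.0518). Calls for induction ranged from 0 to 1 when single arrays were left out: AKIRIN2 was lower by 1.49 (-1.49, limma adjusted p = 0.00266) without uninduced replicate 2.

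Induction differences of the 4 genes, none called, changed sign. Leaving out single arrays gave -0.0792 to 0.0628 for H2BC5, -0.0518 to 0.0657 for H1-2, -0.15 to 0.46 for H2BC9 and -0.25 to 0.12 for H2AC6, and quantile normalization gave 0.0059 for H2BC5. The H4C8 set 232035_at ran from -0.57 to 0.21, HFE from -0.222 to 0.0157, COL1A1 from -0.0957 to 0.183 and KRT18 from -0.0226 to 0.0747 in the siRNA comparison. The cause was not tested. Values near 5 limit several histone sets, among them H3C6, H3C8, H4C5, H4C11, both H4C8 sets, 208580_x_at, 214542_x_at and the set for H3C4 and H2AC7.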

Other observations

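H3.3, the replication-independent H3 variant made from 2 genes with the same protein, was read only by sets annotated to several genes. These were picked after their values were seen. The set 211999_at, annotated to H3-3A, H3-3B and a microRNA gene, read 12.12 and 12.11 in mock cells without induction, 12.07 and 12.10 with induction, and 12.43 and 12.44 after siRNA. Its log2 difference of 0.32 (SE 0.04, limma adjusted p = 0.000279) was called. The set 213828_x_at, annotated to H3-3A, H3-3B and a pseudogene, had -0.04 (SE 0.03, adjusted p = 0.232) at a level of 13.71 and 13.72 without induction. The 2 readings of the same genes thus differed in the call.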
